A study of Rattus norvegicus with 6 samples.

Results

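Enzymes of xenobiotic metabolism were followed in the renal cortex of rats given potassium bromate, a renal toxicant and strong oxidant. The set holds 39 genes listed by name: 20 oxidation enzymes, 3 hydrolases, 6 reductases, 9 conjugating enzymes and the receptor gene Ahr. Each gene was read from its brightest named array probe, and a gene was kept when 3 or more of the 6 arrays had that probe well above background. Named probes were found for 37 genes, of which 34 were kept, among 27506 genes tested in all. Cyp2u1 and Tpmt had no named probe, and Cyp1a1, Cyp1b1 and Sult1d1 were not kept. Adh1 was found under its present symbol, Adh1c.

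Foreign and endogenous small molecules are handled in steps. Cytochrome P450 and flavin monooxygenases add or expose a reactive group, with electrons that P450 reductase passes to the P450s. Hydrolases, reductases and dehydrogenases convert esters, epoxides, carbonyls, quinones, alcohols and aldehydes. Transferases then attach glucuronic acid, sulfate or acetyl groups, which makes the products easier to excrete. In the kidney much of this capacity lies in the proximal tubule, and several of the P450s also act on fatty acids.

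All 6 animals were male Sprague-Dawley rats (Crl:CD(SD)), bought at 5 weeks of age and fed a basal diet. The water group (3 rats) was given water for 4 weeks, and the bromate group (3 rats) was given potassium bromate at 100 mg/kg/day for the same time. Whole cortex RNA of each rat was labelled with Cy3 and put on 1 single-colour Agilent array, so cells of all cortical types are mixed. In such tissue, fewer cells of a type and less RNA per cell cannot be told apart.

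Each array carried 61537 probes besides controls, and 57.9% to 63.1% of these gave a signal well above background, with 0 saturated. Slide and scan were the same for 5 arrays and different for water replicate 1. Havcr1, which encodes kidney injury molecule 1, read -3.99, -5.09 and -5.34 under water and 3.43, 3.17 and 3.31 under bromate, higher on every bromate array (limma adjusted p = 0.000743). Levels throughout are log2 signals after subtraction of the log2 75th percentile of that array, given for replicates 1, 2 and 3 in that order. They are not comparable between genes, because each probe binds with its own strength. Differences are bromate minus water in log2 units ± standard error (n = 3 per group), and a gene "rose" or "fell" when limma's Benjamini-Hochberg adjusted p over all genes was at most 0.05.

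Of the 34 genes measured, 4 rose, 8 fell and 22 did not pass. Cyp3a9, Ephx1, Cbr1 and Ugt2b35 rose, and Cyp4b1, Fmo1, Fmo2, Fmo4, Aldh2, Ces1d, Akr1a1 and Nqo2 fell. The 12 calls make 35.3% of the measured set, against 14.5% of all genes tested and 16.9% of those with a symbol. The list was chosen with earlier results of these data known, so its shares, here and below, only describe it. By direction, 11.8% of the set rose against 6.87% of all genes, and 23.5% fell against 7.59%. At least 2-fold, 2 genes rose (background 2.22%) and 3 fell (background 1.96%). Cyp3a9 was well above background on bromate arrays alone, so it entered the test through the group in which it was high and had to differ. Of the other 33 genes, 3 rose and 8 fell.

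**Figure D1:**
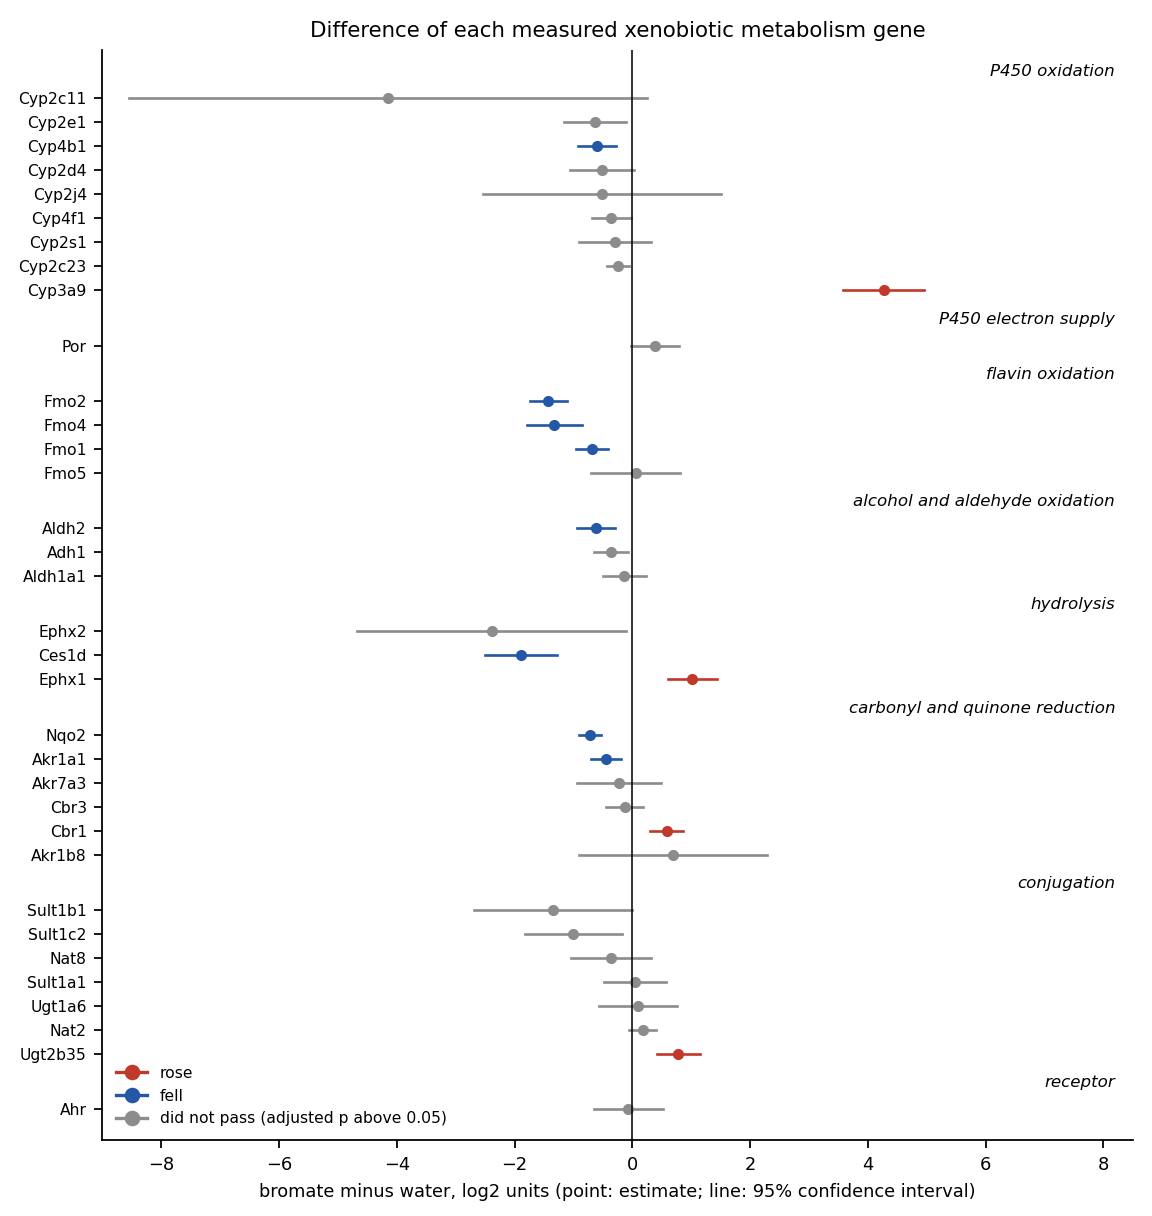
Bromate minus water difference (log2 units, points) with its 95% confidence interval (lines, n = 3 per group) for each of the 34 measured genes, grouped by role. Most oxidation enzymes lie to the left of 0, Cyp3a9 at 4.27 lies far to the right, and Cyp2c11, Cyp2j4 and Ephx2 have the widest intervals.

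Values of the 2 groups did not overlap in 22 of the 34 genes (64.7%, background 41.0%), and 10 of those 22 did not pass the test. The difference was below 0 in 24 of the 34 (background 53.0%). The median over the set was -0.36, and -0.02 over all genes tested. Fmo2, Ces1d and Nqo2 kept their call when any 1 array was left out, as did Cyp3a9, for which its entry through the bromate arrays makes this no sign of stability. The other 8 called genes each lost the call on at least 1 omission.

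**Figure D2:**
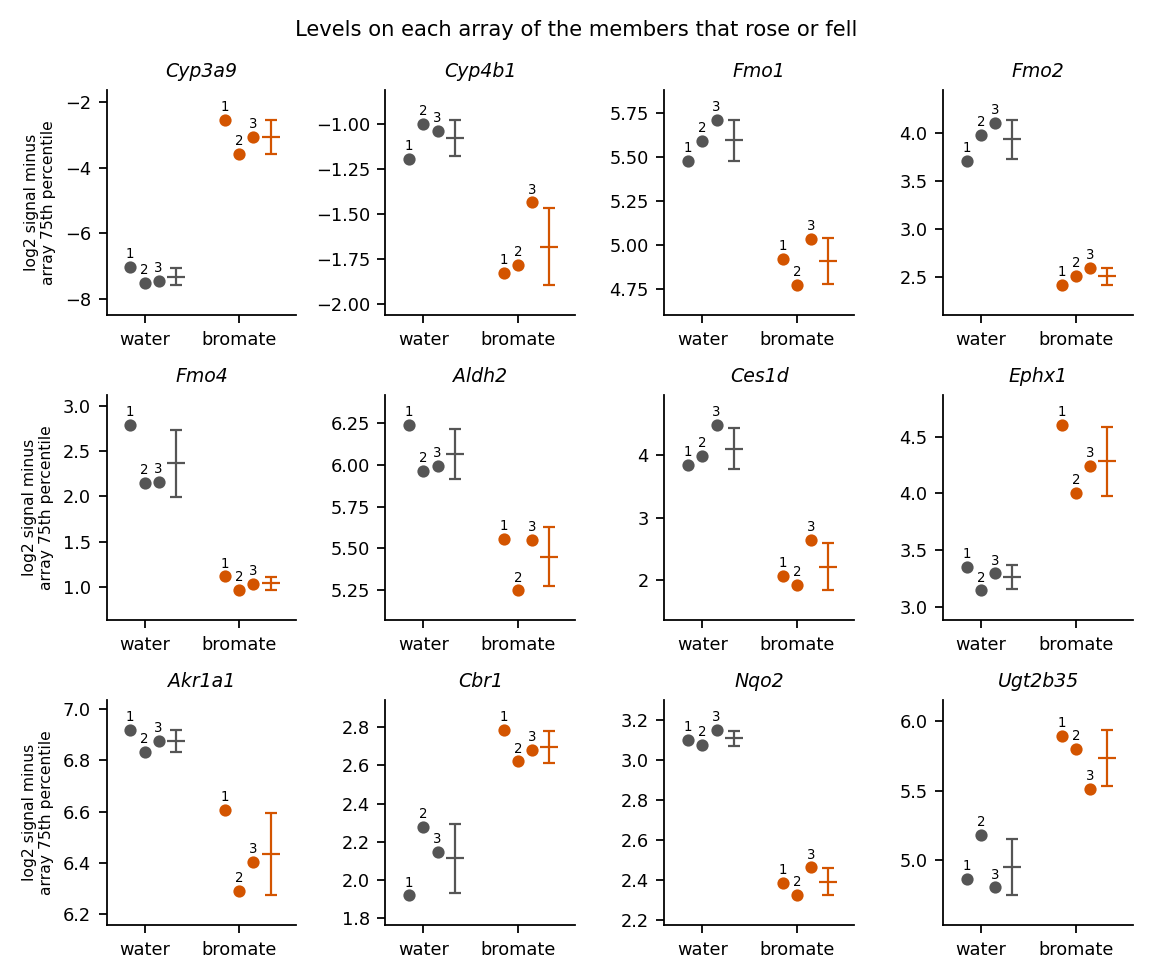
Level on each array (log2 signal minus the array's 75th percentile) of the 12 genes that rose or fell, with replicate numbers above the points and mean ± SD beside them (n = 3 per group). The vertical scale differs between panels, and in every panel the water and bromate points are separate.

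Of 12 listed P450 genes 9 were measured: Cyp3a9 rose, Cyp4b1 fell and 7 did not pass, with a median difference of -0.52. Cyp3a9, a CYP3A enzyme of rat that oxidises steroids and drugs, read -7.03, -7.51 and -7.45 under water and -2.54, -3.57 and -3.07 under bromate. The water values were not well above background on any array, and each bromate value was. The rise is therefore given as at least 3.84-fold. For this bound each water value was set to the lowest signal that counts as well above background on its array. The group means were -7.33 ± 0.26 and -3.06 ± 0.51 (SD), with a fitted difference of 4.27 ± 0.28 and adjusted p = 0.00177. With normexp background correction and quantile normalization the difference was 1.34 (adjusted p = 0.00544).

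Cyp4b1, a P450 that oxidises fatty acids and activates some protoxins, read -1.19, -1.0 and -1.04 under water and -1.83, -1.78 and -1.44 under bromate. It fell 1.52-fold (-0.60 ± 0.13, adjusted p = 0.0357). Bromate replicate 3 lay nearest to the water arrays. The call held without bromate replicate 3 and was lost without any other single array (adjusted p from 0.0514 to 0.114). The difference was -0.39 with normexp background correction and quantile normalization.

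Cyp2c23, the main arachidonic acid epoxygenase of rat kidney, was nearly the same on all arrays of a group: 8.30, 8.29 and 8.34 under water and 8.11, 8.0 and 8.09 under bromate. Its groups did not overlap, yet the difference of -0.25 ± 0.08 did not pass (adjusted p = 0.0842). With an intensity trend and robust variance it passed (adjusted p = 0.0257), and with quantile normalization the difference was -0.05. Cyp2e1, which oxidises ethanol and small solvents, read 6.18, 6.20 and 6.59 under water and 5.40, 5.58 and 6.09 under bromate (-0.64 ± 0.21, adjusted p = 0.0997). Cyp4f1, a hydroxylase of fatty acids and leukotrienes, differed by -0.36 ± 0.14 (adjusted p = 0.13), and Cyp2d4 by -0.52 ± 0.22 (adjusted p = 0.167), both without overlap. Cyp2s1 overlapped between groups (-0.30 ± 0.25, adjusted p = 0.447).

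Cyp2c11 and Cyp2j4 varied widely among the water arrays. Cyp2c11, best known as a male-specific liver P450, read 3.31, -2.37 and -3.56 under water and -3.97, -5.72 and -5.36 under bromate. Water replicate 1 stood far above the other 5 arrays, and the probe was well above background on all 3 water arrays and 1 bromate array. The difference of -4.14 ± 1.79 did not pass (adjusted p = 0.171), and its interval ran from -8.54 to 0.25. Cyp2j4, an epoxygenase of gut and other tissues, read 1.80, 0.35 and -1.02 under water and -1.25, 0.10 and 0.73 under bromate (-0.52 ± 0.83, adjusted p = 0.701). Its 3 probes gave differences of -0.52, -0.46 and -0.56, so the spread was shared by all of them.

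Por, which encodes the reductase that supplies electrons to microsomal P450s, did not pass either. It read 2.90, 2.55 and 2.93 under water and 3.46, 3.07 and 3.02 under bromate. The groups did not overlap, and the difference was 0.39 ± 0.17 (adjusted p = 0.167).

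Of 4 flavin monooxygenases, which oxidise nitrogen and sulfur atoms of drugs and diet compounds, 3 fell and 1 did not pass. Fmo2 read 3.71, 3.98 and 4.10 under water and 2.41, 2.51 and 2.59 under bromate. Every bromate value lay more than 1 log2 unit below every water value, and Fmo2 fell 2.68-fold (-1.42 ± 0.13, adjusted p = 0.00347). Its dimmer probe fell as well (-1.14 ± 0.13, adjusted p = 0.0067 with each probe tested for itself). Fmo4 read 2.79, 2.15 and 2.16 under water and 1.12, 0.96 and 1.04 under bromate. It fell 2.5-fold (-1.32 ± 0.19, adjusted p = 0.0131, and 0.0527 without bromate replicate 2).

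Fmo1, the form most abundant in adult rat kidney and liver, read 5.48, 5.60 and 5.71 under water and 4.92, 4.77 and 5.04 under bromate. It fell 1.61-fold (-0.69 ± 0.11, adjusted p = 0.016). The call was lost without water replicate 2 or 3 or bromate replicate 2 (adjusted p up to 0.0637). Fmo5 overlapped between groups, with a difference of 0.06 ± 0.31 whose interval ran from -0.69 to 0.81.

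Of 3 alcohol and aldehyde dehydrogenases 1 fell and 2 did not pass. Aldh2, the mitochondrial enzyme that clears acetaldehyde, read 6.24, 5.97 and 6.0 under water and 5.55, 5.25 and 5.55 under bromate. It fell 1.53-fold (-0.62 ± 0.13, adjusted p = 0.0326), its other probe fell by 0.66, and the call was lost on leaving out any 1 array (adjusted p from 0.0599 to 0.0857). Adh1, the class I alcohol dehydrogenase, did not overlap between groups (-0.37 ± 0.12) but did not pass (adjusted p = 0.0913). Aldh1a1, which oxidises retinal, differed by -0.14 ± 0.15 (adjusted p = 0.559), with an interval from -0.50 to 0.22.

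Of the 3 hydrolases 1 rose, 1 fell and 1 did not pass. Ces1d, a carboxylesterase that splits ester drugs and lipids, read 3.85, 3.99 and 4.49 under water and 2.08, 1.93 and 2.65 under bromate. It fell 3.71-fold (-1.89 ± 0.25, adjusted p = 0.0105), and its other probe gave -1.90 ± 0.24. Ephx1, the microsomal epoxide hydrolase that turns reactive epoxides into diols, read 3.35, 3.14 and 3.29 under water and 4.60, 4.0 and 4.24 under bromate. It rose 2.03-fold (1.02 ± 0.17, adjusted p = 0.0177), and the call was lost without water replicate 2 or 3 or bromate replicate 3 (adjusted p from 0.0542 to 0.068).

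Ephx2, the soluble epoxide hydrolase that converts arachidonic acid epoxides, had a single far array. It read 2.79, 2.67 and 2.28 under water, 1.15 and 1.48 on bromate replicates 1 and 2 and -2.05 on bromate replicate 3. All bromate values lay below all water values, and the difference of -2.39 ± 0.93 missed the threshold (adjusted p = 0.139). On omission of bromate replicate 3 it was -1.27 and passed (adjusted p = 0.0359).

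Reductases of carbonyls and quinones showed no shared direction: of 6 measured, 1 rose, 2 fell and 3 did not pass. Cbr1, a carbonyl reductase of prostaglandins, quinones and anthracyclines, read 1.92, 2.28 and 2.15 under water and 2.78, 2.62 and 2.68 under bromate. It rose 1.5-fold (0.58 ± 0.12, adjusted p = 0.0291), a call that held without water replicate 1 and was lost without any other single array (adjusted p from 0.0563 to 0.0806). Its other probes gave 0.50 ± 0.11 (adjusted p = 0.0351) and 0.35 ± 0.09 (adjusted p = 0.053) with each probe tested for itself. Cbr3, its close relative on the same chromosome, read -1.71, -1.93 and -2.16 under water and -2.06, -2.12 and -2.02 under bromate. It overlapped between groups (-0.13 ± 0.13, adjusted p = 0.527), and whether the Cbr1 and Cbr3 differences were unequal was not tested.

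Nqo2, a quinone reductase that takes its electrons from dihydronicotinamide riboside, was the most evenly measured fall. It read 3.10, 3.07 and 3.15 under water and 2.39, 2.33 and 2.46 under bromate, with means of 3.11 ± 0.04 and 2.39 ± 0.07 (SD). It fell 1.64-fold (-0.72 ± 0.08, adjusted p = 0.00625), and its other probe gave -0.70 ± 0.07. Akr1a1, an aldehyde reductase of vitamin C synthesis in rodents, read 6.92, 6.83 and 6.88 under water and 6.61, 6.29 and 6.40 under bromate. It fell 1.36-fold (-0.44 ± 0.10, adjusted p = 0.0436), a call that held without bromate replicate 1 and was lost without any other single array (adjusted p from 0.0852 to 0.119).

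Akr1b8 and Akr7a3, aldo-keto reductases of reactive aldehydes, overlapped between groups. Akr1b8 read 3.29, 3.57 and 2.29 under water and 4.17, 4.66 and 2.40 under bromate (0.69 ± 0.65, adjusted p = 0.502), with replicate 3 the lowest array of both groups. Akr7a3, the aflatoxin aldehyde reductase, read 7.45, 6.83 and 6.56 under water and 7.17, 6.49 and 6.52 under bromate (-0.22 ± 0.29, adjusted p = 0.63).

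The 250 bases before the start site are shown for the largest rise (Cyp3a9), for the epoxide hydrolase that rose (Ephx1, the start site with a match), for the neighbouring pair Cbr1 and Cbr3, and for the most evenly measured fall (Nqo2). They are RefSeq sequences of build GRCr8, written 5′ to 3′ on the strand of the gene. Capitals mark matches on either strand to GCGTG, the core of the response element of the aryl hydrocarbon receptor, or to TGACNNNGC, the core of the antioxidant response element that binds NRF2.
Cyp3a9 (chr12:21960161-21960410, minus strand): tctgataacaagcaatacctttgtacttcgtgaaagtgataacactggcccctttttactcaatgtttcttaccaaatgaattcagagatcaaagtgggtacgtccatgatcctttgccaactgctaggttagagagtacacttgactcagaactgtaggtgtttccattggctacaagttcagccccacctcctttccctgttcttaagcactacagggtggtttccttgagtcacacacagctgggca
Ephx1 (chr13:95263118-95263367, minus strand): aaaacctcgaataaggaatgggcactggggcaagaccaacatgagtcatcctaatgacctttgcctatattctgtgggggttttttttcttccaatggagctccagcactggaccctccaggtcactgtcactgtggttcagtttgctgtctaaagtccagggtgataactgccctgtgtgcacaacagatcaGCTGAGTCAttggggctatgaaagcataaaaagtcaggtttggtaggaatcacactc
Cbr1 (chr11:46346155-46346404, plus strand): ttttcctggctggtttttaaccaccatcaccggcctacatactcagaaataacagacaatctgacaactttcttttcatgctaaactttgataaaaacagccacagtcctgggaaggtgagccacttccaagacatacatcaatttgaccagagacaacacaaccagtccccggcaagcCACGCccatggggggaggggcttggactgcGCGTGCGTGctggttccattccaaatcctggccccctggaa
Cbr3 (chr11:46478045-46478294, plus strand): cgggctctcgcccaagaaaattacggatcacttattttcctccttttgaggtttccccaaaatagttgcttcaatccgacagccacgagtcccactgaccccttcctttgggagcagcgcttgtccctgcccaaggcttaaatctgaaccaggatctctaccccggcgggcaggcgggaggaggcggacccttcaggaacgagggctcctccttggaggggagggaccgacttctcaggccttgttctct
Nqo2 (chr17:31143663-31143912, minus strand): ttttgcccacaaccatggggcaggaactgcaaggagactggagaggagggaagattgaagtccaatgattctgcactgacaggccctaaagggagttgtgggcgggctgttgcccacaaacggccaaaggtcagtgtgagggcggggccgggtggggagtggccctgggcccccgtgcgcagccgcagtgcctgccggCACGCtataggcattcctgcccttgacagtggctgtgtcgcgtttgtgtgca

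Cyp3a9 and Cbr3 held neither motif in this window. Ephx1 held TGACNNNGC on the opposite strand, 57 to 49 bases before this start, and its other start site had no match. Cbr1 held GCGTG 3 times, as a pair overlapping by a base on the gene's strand and a single match on the opposite strand, and Nqo2 held a single match on the opposite strand, 52 to 48 bases before the start. Of the set, 34 genes had a window, of which 11 held GCGTG and 5 held TGACNNNGC. Counted by window, that was 31.4% and 14.3%, against 25.9% and 10.1% of 33465 windows of all genes. GCGTG was found in 1 of the 4 genes that rose, 2 of the 6 with a window that fell and 5 of the 20 with a window that did not pass. For TGACNNNGC the counts were 1 of 4, 1 of 6 and 2 of 20. Ephx2, Cyp1a1, Nat2, Aldh2 and Fmo4 had no entry. A match describes letters and does not show a binding site.

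Conjugating enzymes showed 1 rise and no fall among the 7 measured (14.3% called, against 14.5% of all genes tested), with a median difference of 0.05. Ugt2b35, a glucuronosyltransferase, read 4.86, 5.18 and 4.81 under water and 5.89, 5.80 and 5.51 under bromate. It rose 1.72-fold (0.78 ± 0.15, adjusted p = 0.0263), and the call was lost without water replicate 1 or 3 or bromate replicate 1 or 2 (adjusted p from 0.0595 to 0.0883). Ugt1a6, which glucuronidates phenols, read 6.46, 5.86 and 5.76 under water and 6.59, 5.83 and 5.97 under bromate (0.10 ± 0.27, adjusted p = 0.822). Transcripts of the UGT1A locus share their last exons and UGT2B genes are alike in sequence, so probes of either family may bind relatives.

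Sulfotransferases, which add sulfate to phenols, steroids and amines, did not pass on their brightest probes. Sult1c2 read 6.02, 7.34 and 6.85 under water and 5.83, 5.52 and 5.86 under bromate, without overlap but with water replicate 1 close to the bromate arrays (-1.0 ± 0.34, adjusted p = 0.1). Without water replicate 1, or with slide as a block, which is the same fit, the difference was -1.36 and passed (adjusted p = 0.0244). The dimmest of its 3 probes fell in the fit of all arrays with each probe tested for itself (-1.27 ± 0.30, adjusted p = 0.0412). Sult1b1 read 4.80, 4.31 and 3.53 under water and 3.31, 1.77 and 3.51 under bromate (-1.35 ± 0.55, adjusted p = 0.151), with about the same difference on all 3 probes (-1.35 to -1.33). Sult1a1 overlapped between groups (0.05 ± 0.22, adjusted p = 0.902).

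The acetyltransferases did not pass. Nat8, which acetylates cysteine conjugates into mercapturic acids for excretion in urine, read 6.93, 6.39 and 6.14 under water and 6.34, 5.66 and 6.37 under bromate (-0.36 ± 0.28, adjusted p = 0.412). Nat2, which acetylates arylamines, differed by 0.17 ± 0.09 (adjusted p = 0.25), with an interval from -0.05 to 0.40.

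Ahr, the receptor that switches on the CYP1 genes, was dim and overlapped between groups. It read -3.68, -4.49 and -4.17 under water and -4.05, -4.02 and -4.48 under bromate (-0.07 ± 0.24, adjusted p = 0.866, interval from -0.65 to 0.51). Its target Cyp1a1 was not well above background on any of the 6 arrays. Cyp1b1, another target, was well above background on 2 bromate arrays and no water array, with signals of -5.26, -6.78 and -6.22 under water and -5.40, -4.36 and -3.90 under bromate, and was not tested. Sult1d1 was well above background on 1 bromate array. Among other genes that answer to the receptor, Ahrr (0.34 ± 0.32, adjusted p = 0.498), Aldh3a1 (0.12 ± 0.08, adjusted p = 0.364) and Nqo1 (1.5 ± 0.40, adjusted p = 0.0568) did not pass, and Tiparp had no named probe. Nqo1 is also a target of NRF2, whose gene Nfe2l2 differed by 0.36 ± 0.10 (adjusted p = 0.0571).

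Oxidation and conjugation enzymes were set side by side. Of 17 oxidation enzymes measured, 1 rose, 5 fell and 14 were below 0, with a median difference of -0.52. Of 7 conjugation enzymes, 1 rose, 0 fell by limma and 3 were below 0, with a median of 0.05. Calls made 35.3% of the oxidation and 14.3% of the conjugation enzymes, against 14.5% of all genes tested. The 1 oxidation rise was Cyp3a9, which entered through the bromate arrays and had to differ. The oxidation share therefore holds a call that the filter fixed in advance. Falls made 29.4% and 0%, against 7.59%, and 53.0% of all genes were below 0. Apart from Cyp3a9, differences of the oxidation enzymes ran from -4.14 (Cyp2c11, dim under bromate) to 0.39 (Por). Those of the conjugation enzymes ran from -1.35 (Sult1b1) to 0.78 (Ugt2b35). Without water replicate 1, or with slide as a block, which is the same fit, the oxidation median was -0.29. Without bromate replicate 1 it was -0.33. On omission of water replicate 2 the conjugation median was -0.12, and on omission of bromate replicate 1 it was -0.13. No test was made of the classes, and medians of so few genes rest on single members.

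**Figure D3:**
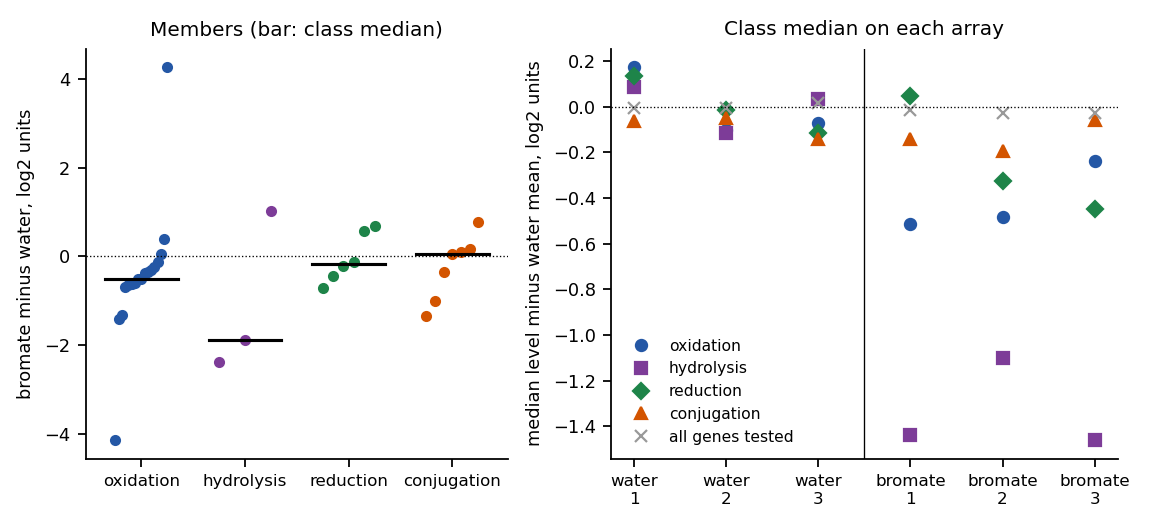
Left, bromate minus water difference (log2 units) of each measured gene by class, with the class median as a bar (oxidation 17 genes, hydrolysis 3, reduction 6, conjugation 7). Right, median over the class of the level minus the gene's mean on the water arrays (log2 units), with all genes tested as crosses. Oxidation medians lie at -0.51, -0.49 and -0.24 on the bromate arrays and conjugation medians at -0.14, -0.20 and -0.06.

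By array, the median oxidation enzyme stood at 0.17, -0.10 and -0.07 relative to its mean on the water arrays, and at -0.51, -0.49 and -0.24 under bromate. The conjugation enzymes stood at -0.06, -0.05 and -0.14 under water and at -0.14, -0.20 and -0.06 under bromate. All 3 bromate values of the oxidation class lay below its water values, while those of the 7 conjugation enzymes overlapped with water. The larger lists of other genes, given next, did not show this contrast.

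Other genes of the same pathway came from lists that leave out glutathione transferases and carriers. Those lists were also chosen with earlier results of these data known. Of 161 such genes with a named probe 111 were measured, of which 5 rose and 24 fell (26.1% called, against 14.5% of all genes), and 82 did not pass. Among 38 other oxidation genes 1 rose and 7 fell (median -0.35), and among 30 other conjugation genes 3 rose and 7 fell (median -0.37). By array, the other oxidation genes stood at 0.03, -0.03 and -0.03 under water and -0.54, -0.42 and -0.29 under bromate. The other conjugation genes stood at 0.12, -0.12 and -0.04 under water and -0.43, -0.46 and -0.27 under bromate. Neither list overlapped between groups. Of 15 other hydrolysis genes 1 rose and 3 fell (median -0.23), and of 17 other reduction genes 0 rose by limma and 5 fell (median -0.32).

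At least 2-fold, the other conjugation genes that changed were Nat8f1 (7.41-fold lower) and Nat8b (2.41-fold lower), both relatives of Nat8, Glyatl1 (3.59-fold lower), a relative of glycine acyltransferase, and Nnmt, which methylates nicotinamide (3.14-fold higher). Aox2, an aldehyde oxidase (2.27-fold lower), Akr1c19, an aldo-keto reductase (2.17-fold lower), and the carboxylesterase genes Ces1e (3.11-fold lower) and Ces1a (12.7-fold higher) made up the rest. The Ces1a probe passed the background test on 1 of the 3 water arrays, so its fold is uncertain. Among the sensors and partners of the pathway, Hnf4a, which encodes a transcription factor of proximal tubule and liver genes and was chosen after its values were seen, fell (-0.70 ± 0.09, adjusted p = 0.0105). The drug sensor gene Nr1i2 did not pass (-0.19 ± 0.10, adjusted p = 0.228).

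Some enzymes spread widely among the water animals, as did markers of the proximal tubule's straight segment. The water arrays spanned more than 1 log2 unit in 5 of the 34 genes (Cyp2c11, Cyp2j4, Akr1b8, Sult1b1 and Sult1c2), against 7.82% of all genes. Water replicate 1 was the highest and water replicate 3 the lowest in 10 of the 34 (29.4%, against 18.2% of all genes), Cyp2c11, Cyp2j4, Sult1b1 and Ephx2 among them. The same held for 9 of 10 straight-tubule markers. The mean level of those markers was 3.31, 1.88 and 0.86 under water and 1.33, 0.30 and 1.27 under bromate, and 0 of the 10 passed by limma (the smallest adjusted p was 0.058). Slc7a13, an amino acid carrier of that segment, read 7.61, 4.83 and 2.54 under water and 1.72, -0.61 and 2.01 under bromate. The part of this spread in the enzyme values was not tested.

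**Figure D4:**
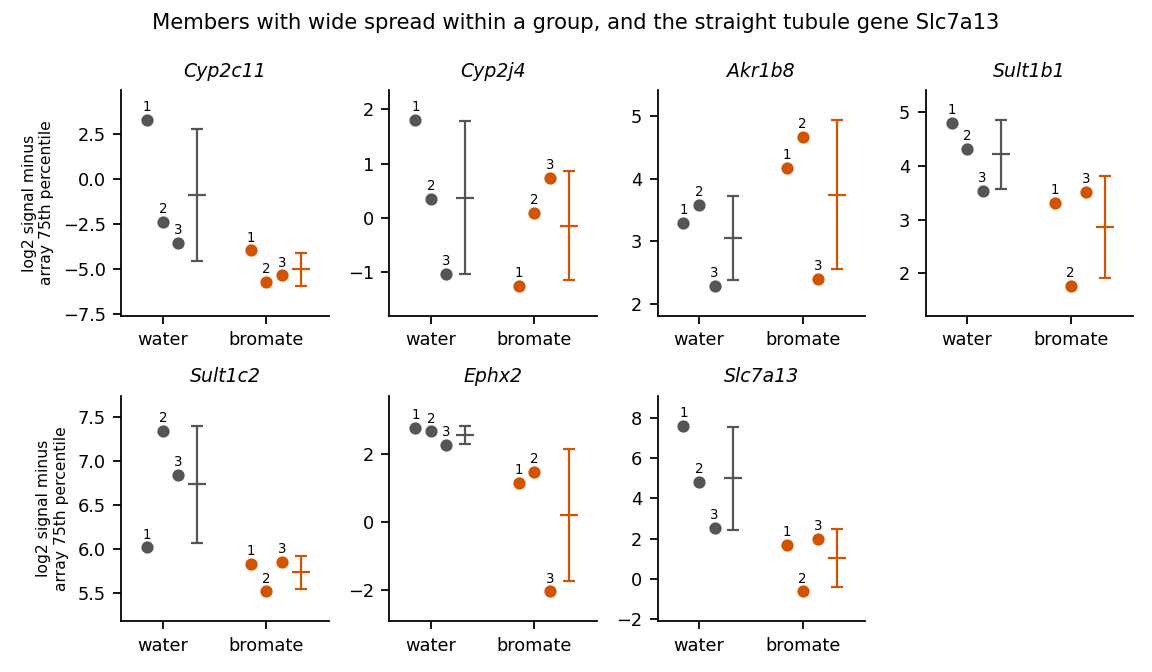
Level on each array (log2 signal minus the array's 75th percentile) of the 5 enzymes whose water arrays spanned more than 1 log2 unit, of Ephx2 and of the straight-tubule gene Slc7a13, with mean ± SD (n = 3 per group). Water replicate 1 is highest and water replicate 3 lowest in Cyp2c11, Cyp2j4, Sult1b1, Ephx2 and Slc7a13, and Ephx2 has a single low point at -2.05.

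Markers of other cells were read on the same arrays. Of 12 convoluted proximal tubule markers 4 fell and 0 rose by limma (median -0.38), with a mean level of 5.77 to 6.02 under water and 5.57 to 5.62 under bromate. Of 7 thick limb markers 5 fell and 1 rose, with mean levels of 2.49 to 2.95 and 0.95 to 1.24. Of 10 macrophage markers 1 rose (0.03 to 0.36 and 0.15 to 0.86), of 9 endothelial markers 2 fell (0.79 to 1.02 and 0.58 to 0.72), and of 7 fibroblast markers none passed (1.41 to 1.67 and 0.74 to 1.80). Of 9 hepatocyte genes, looked at because Cyp2c11 is a liver enzyme, 4 were measured, 1 rose and 1 fell, with mean levels of -2.44 to -1.11 and -2.36 to -1.35. The gene that rose, Hpx, was well above background on bromate arrays alone and so had to differ. Albumin (Alb), Ttr, Serpina1, Cps1 and Apoa2 were not well above background on 3 arrays. The part of cell composition in the enzyme differences was not tested.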

How the data were processed

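The submitters' processing notes name Agilent Feature Extraction 10.7 for the arrays, whose design is annotated on rn4, per the file headers. Per the file headers, the deposited processed signal is a spot intensity with background removed and spatial trend corrected, with no scaling from array to array. The value table of the authors is a linear ratio: each column equalled that signal over a constant near the array's 75th percentile (worst deviation 0.917%). Its medians were 0.1043, 0.1049 and 0.103 for water and 0.1025, 0.1054 and 0.1026 for bromate. Its values are not centred and rise with the signal, as this match shows.

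From each log2 processed signal the log2 75th percentile of its array, over non-control probes, was subtracted. Control spots and outlier spots (0 to 4 per array) were left out, and no listed gene had an outlier spot. Accessions were looked up in the RefSeq gene table (assembly GRCr8): 28206 probes (45.8%) had 1 symbol and 33331 were left without a name. Of the probes of a symbol that were well above background on at least 3 arrays, the brightest stood for the gene. Probes without a symbol were grouped by accession.

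The test was limma 3.58.1 (lmFit, then eBayes; R 4.3.3), with Benjamini-Hochberg adjustment over 27506 genes. Each array is a separate animal, per the labels, and the 3 arrays per group limit the precision of every value. On simulated data with those genes, 55% of changes of 1 log2 unit and 83% of changes of 2 were recovered, with 15 false calls. The simulation changed 100 genes at each size, whereas 3979 genes were called in the data. Its rates therefore need not hold for these data. The listed genes and the other lists were chosen with earlier results of these data known. All measured listed genes are named. The result of a gene on the sensors list is not reported here. Of the pathway lists, called genes of at least 2-fold (up to 4 per list) and Nqo1, Ahrr, Tiparp, Aldh3a1 and Nfe2l2 were to be named. Nr1i2 and, where the text says so, other genes were chosen after their values were seen. A gene below background throughout a group is given as a bound, with the dim group at its own signal or the lowest signal that counts as well above background on that array, whichever is higher. Replicate numbers did not pair the animals: deviations of same-numbered arrays correlated at 0.0506, 0.0699 and -0.0953 across genes. Alternatives were quantile normalization, another percentile, normexp (offset 50, on median spot and local background signals), the value table, other filters, the mean of a gene's probes, an intensity trend, slide and replicate blocks, and each array left out. Testing each probe for itself was added after seeing the data.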

Additional observations from a re-analysis of the deposited data

How the results depend on the processing

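The counts of 4 genes that rose and 8 that fell were 2 and 4 without a filter on dim probes, where 45432 genes share the adjustment. With the replicate number as a block, which takes up degrees of freedom, they were also 2 and 4, and 585 genes rose and 535 fell over all genes. Replicate numbers did not pair the animals, so calls lost under this block are not read as weaker effects. With slide as a block the oxidation median was -0.29. On leaving out 1 array, 1 to 3 genes rose and 3 to 7 fell, the oxidation median ran from -0.63 to -0.29 and the conjugation median from -0.13 to 0.046. Over all genes, 594 to 1495 rose and 530 to 1835 fell on those omissions, and 750 rose and 694 fell without the filter, against 1891 and 2088. Of 576 values of single genes under 17 alternatives, 524 stayed on the same side of the threshold, 48 lost the call and 4 gained it. With a call in either fit, 0 reversed direction by limma. Direction was not compared where neither fit had a call, and some of those genes changed sign, such as Cyp2j4 (from -1.22 to 0.20). Slide as a block and omission of water replicate 1 were the same fit, because that array was alone on its slide. The 4 gains were Cyp2c23 with an intensity trend, Ephx2 without bromate replicate 3 and Sult1c2 both with slide as a block and without water replicate 1. The cause of these shifts was not tested. Dim signals limit Cyp3a9, Cyp1b1, Ahr and, under bromate, Cyp2c11, and 3 arrays per group limit all values.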

Other observations

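The close relatives of the listed enzymes given here were chosen after their values were seen. Within the carboxylesterase 1 and CYP4A families they changed in different directions. In the carboxylesterase 1 family, Ces1a read -5.73, -4.71 and -6.08 under water and -1.63, -2.08 and -1.80 under bromate, whereas Ces1e read 3.59, 3.55 and 3.57 under water and 2.00, 1.78 and 2.02 under bromate. Ces1e (-1.64 ± 0.09, adjusted p = 0.00115) and Ces1f (-0.58 ± 0.11, adjusted p = 0.0228) fell with Ces1d, and Ces1a rose (3.67 ± 0.36, adjusted p = 0.0046). Whether probes of this family bind relatives could not be checked, so the falls may not be separate measurements. In the CYP4A fatty acid hydroxylases, Cyp4a1 fell (-0.92 ± 0.09, adjusted p = 0.00476) while Cyp4a3 rose (0.60 ± 0.11, adjusted p = 0.0241), again with no overlap between groups in either gene. Cyp4a8 (-0.52 ± 0.14, adjusted p = 0.0587) and Cyp4a2 (-0.31 ± 0.14, adjusted p = 0.19) did not pass.

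In the UGT2B family, Ugt2b15 (0.86 ± 0.16, adjusted p = 0.023) and Ugt2b37 (0.91 ± 0.23, adjusted p = 0.0491) rose with Ugt2b35, and Ugt2b7 did not pass (2.90 ± 1.08, adjusted p = 0.126). Probes of this family may bind relatives, so the 3 rises may not be separate measurements. Among mercapturic acid enzymes and relatives of Nat8, the relative Nat8f1 read 3.26, 2.17 and 1.64 under water and -0.61, -0.42 and -0.57 under bromate (-2.89 ± 0.40, adjusted p = 0.0119). Nat8b, another relative, fell 2.41-fold. Acy1, an aminoacylase that removes the acetyl group of mercapturic acids, fell by 0.96 (adjusted p = 0.0415). Nat8 itself, Nat8f5 (-0.26, adjusted p = 0.193) and Acy3, another aminoacylase (-0.08, adjusted p = 0.815), did not pass.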
